A study of Mus musculus with 12 samples.

Results

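Of the 48 genes of DNA replication and mitosis described here, 47 were measured among 18193 genes of neonatal mouse dermis, and they were followed from postnatal day 1 (P1) to postnatal day 5 (P5). They were chosen by name: a gene belonged to the set when its symbol was on the list and at least 1 probe set of the array carried that symbol alone. Ccnb1, which encodes cyclin B1, had no such probe set in the annotation used and has no values here.

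RNA came from the dermis of C57Bl6/CBA F1 mice in 4 groups of 3 arrays: back at P1 and at P5 (P1 Back, P5 Back), and tail at the same ages (P1 Tail, P5 Tail). The labels name no transgene and no treatment. Tail skin had been freed of its epidermis after EDTA and back skin after dispase with trypsin, so the site and the separating solution cannot be told apart. The dermis was digested further into a suspension of single cells, from which RNA was taken without sorting, so each array holds every cell type left in the dermis. The preparation was described for P1, with RNA of triplicate mice, and the P5 labels repeat it; p-values therefore measure the spread between these arrays, each taken as 1 mouse.

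Each array was an Affymetrix mouse genome array, on which a probe set is a group of short probes against the end of a transcript. The deposited values were on a log2 scale, and each probe set had been centred on its median over the 12 arrays. A value of 0 is therefore the median array for that gene, a negative value lies below it, and levels of different genes cannot be compared. For the same reason the presence of dermal markers, such as fibroblast genes, could be followed only as differences between arrays and not as levels. Values are listed in the order of replicates 1, 5 and 6 for P1 Back, 4, 5 and 6 for P1 Tail, 1, 2 and 3 for P5 Back and 2, 3 and 4 for P5 Tail.

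Cell cycle genes are transcribed in waves. E2F factors switch on the genes of DNA replication as a cell leaves G1, and a later wave driven by B-Myb (Mybl2), the MuvB complex and Foxm1 switches on the genes of mitosis. In resting cells the DREAM complex holds both waves down. In growing dermis these transcripts mark cells in S, G2 and M phase, and in bulk RNA fewer such cells and less RNA per cell cannot be told apart. Hair follicle and epidermal keratinocytes also divide in neonatal skin, so that any such cells left in a dermal preparation carry the same transcripts.

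Promoters are shown because 2 short elements and a family of E2F sites are the known binding letters of these complexes and of NF-Y, which acts with them. RefSeq windows from 250 bases before to 50 bases after a transcription start (GRCm38.p6) were found for 40 of the 48 genes, with 43 windows in all, since a few genes have more than 1 start. Both strands were searched. The cell cycle genes homology region (CHR) was read as TTTGAA or as TTCGAA, and the CCAAT box bound by NF-Y as CCAAT. An E2F site was read as TTNNCGC in which each N had to be G or C. A reversed CCAAT box (ATTGG) can share its last letters with an E2F site, so those 2 counts are not fully separate. CHR letters stood in 22 of the 43 windows (51.2%), against 19.2% of all 32851 windows and 17.6% of 21263 windows of protein-coding genes. The CCAAT letters stood in 34 (79.1%), against 37.4% of all windows, and the E2F letters in 15 (34.9%), against 9.57%. All 22 windows with a CHR also held a CCAAT box, a pair found in 7.52% of all windows.

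The 4 windows printed here belong to Bub1, Prc1, Kif11 and Cdc6, the genes with a motif whose P5 minus P1 difference averaged over both sites was largest in size. Each runs 5′ to 3′ on the strand of its gene, from 150 bases before to 30 bases after the start, and so covers the promoter and the first bases of exon 1. Capitals mark the CHR, CCAAT and E2F letters on either strand.
Bub1 chr2:127831830-127832009 (-): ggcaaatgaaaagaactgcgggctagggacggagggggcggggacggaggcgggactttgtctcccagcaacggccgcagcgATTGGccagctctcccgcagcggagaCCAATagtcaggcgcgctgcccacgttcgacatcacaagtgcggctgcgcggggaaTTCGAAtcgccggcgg
Kif11 chr19:37376232-37376411 (+): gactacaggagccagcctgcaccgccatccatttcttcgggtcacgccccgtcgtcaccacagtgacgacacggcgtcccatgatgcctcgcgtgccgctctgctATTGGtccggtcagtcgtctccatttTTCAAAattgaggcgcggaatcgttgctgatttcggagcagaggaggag
Prc1 chr7:80294301-80294480 (+): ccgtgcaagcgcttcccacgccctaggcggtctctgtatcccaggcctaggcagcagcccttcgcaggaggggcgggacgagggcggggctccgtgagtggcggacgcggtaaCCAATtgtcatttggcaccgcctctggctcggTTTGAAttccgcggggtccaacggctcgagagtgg
Cdc6 chr11:98908001-98908180 (+): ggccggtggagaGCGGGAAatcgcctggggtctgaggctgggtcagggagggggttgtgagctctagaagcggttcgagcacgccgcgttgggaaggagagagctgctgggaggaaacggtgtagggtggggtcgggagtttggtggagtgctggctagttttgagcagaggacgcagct

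Bub1 held a CHR (TTCGAA) at positions 15 to 20 after the start and CCAAT letters at -68 to -64 and -42 to -38. Kif11 held a reversed CHR (TTCAAA) at -19 to -14 behind a reversed CCAAT box at -45 to -41, and Prc1 held a CHR (TTTGAA) at -5 to 1 behind a CCAAT box at -37 to -33. Prc1 has another annotated start just downstream, in whose window the same letters lie at -30 to -25 and -62 to -58. Cdc6 carried no CHR and no CCAAT box in its window, and its only match was an E2F site read backwards (GCGGGAA) at -138 to -132. A match of letters is a description of the sequence and was not tested as a site in these cells.

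2 properties of the arrays bear on every difference. First, the site labels go against positional markers: 13 measured posterior Hox genes, which mark the caudal body, were all lower in the arrays labelled tail than in those labelled back at both ages, with 10 called at P1 and 9 at P5. Of 10 adipocyte genes, 8 were called higher in the arrays labelled tail at P1 (median 2.30) and 0 lower. For fat metabolism genes this is opposite to the direction in the study. The sites are therefore named here only as labelled. Second, P5 Tail replicate 2 stood apart. The SD of its values over all probe sets was 0.495, against 0.227 to 0.338 in the other 11 arrays, its Gapdh 3′ probe set stood lowest against the 5′ one (-0.56, others -0.24 to 0.36, each relative to the median array), and limma gave it the lowest array weight (0.18). It was the highest or the lowest of the 12 arrays for 28 of the 47 cell cycle genes (59.6%) and for 45.0% of all genes. Results for labelled-tail arrays are therefore also given without it.

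Cell cycle genes stood slightly lower at P5 than at P1 at both labelled sites, and the shift was broad rather than large. The mean over the 47 genes was 0.07, 0.07 and 0.10 in the P1 Back arrays and -0.06, -0.19 and -0.09 in the P5 Back arrays. In labelled-tail arrays it was 0.13, 0.02 and 0.08 at P1 and -0.02, -0.14 and -0.14 at P5. All 6 P5 arrays lay below all 6 P1 arrays on this mean, with P5 Tail replicate 2 the highest of the P5 arrays and P1 Tail replicate 5 the lowest of the P1 arrays. The lowest of the 12 arrays was a P5 array for 47 of 47 cell cycle genes, against 60.2% of all genes, whereas the highest was a P5 array for 18 of them (38.3%; all genes 67.2%), 15 of the 18 in P5 Tail replicate 2.

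**Figure D1:**
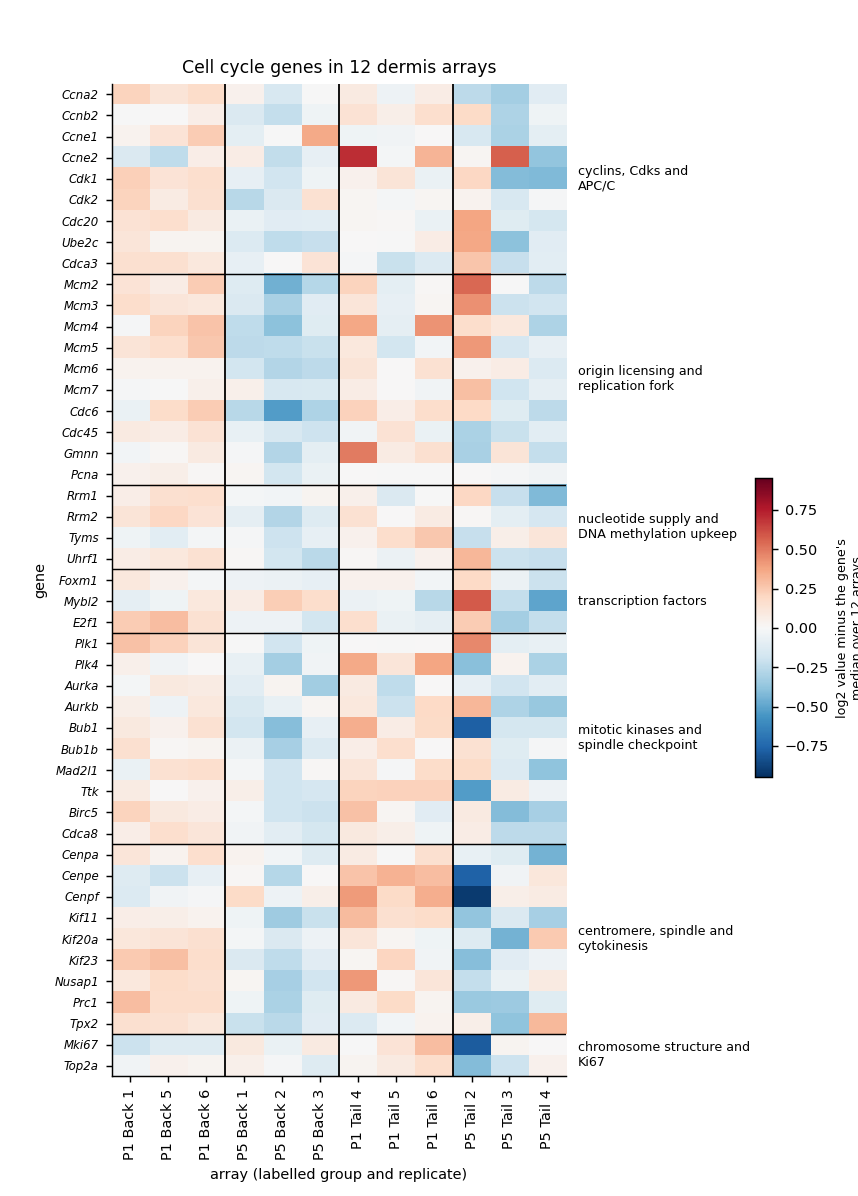
Values of the 47 cell cycle genes (rows, grouped by role) in the 12 arrays (columns, by labelled group), as log2 value minus the gene's median over the arrays, red above and blue below it. P1 columns are mostly red and P5 columns mostly blue, and P5 Tail replicate 2 holds strong colours of both signs, from -0.91 for Cenpf to 0.59 for Mybl2.

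In labelled-back arrays the median P5 minus P1 difference over the 47 genes was -0.21 on the log2 scale, and 42 of them were below 0, whereas the median over all genes was 0.01 and 48.2% were below 0. No cell cycle gene passed the test there, either lower or higher (limma, Benjamini-Hochberg adjusted p under 0.05 over all genes), where 2.03% of all genes were called lower and 2.22% higher. At an unadjusted p under 0.05, 13 of the 47 were lower and 0 higher, where 6.8% of all genes were lower and 1204 of 18193 were higher. The methods' t-test after adjustment called 0 of the 47, but it called only 0.0165% of all genes lower and 0.0385% higher. A limma fit with array weights called 17 lower, in which 5.88% of all genes were called lower. All 3 P5 arrays lay below all 3 P1 arrays for 28 of the 47 genes, a pattern shown by 13.6% of all genes. The differences ran from -0.48 (Cdc6, adjusted p = 0.0656) to 0.19 (Mki67, adjusted p = 0.82).

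In labelled-tail arrays the median was -0.17 and 40 of 47 were below 0, against a median of 0.04 over all genes and 42.8% below 0. Kif11 and Plk4 fell, whereas 1.96% of all genes were called lower and 3.34% higher, and no cell cycle gene rose. The P5 and P1 arrays did not overlap for 12 of the 47 genes in the lower direction, against 8.34% of all genes. Without P5 Tail replicate 2 the median was -0.21, 46 of 47 were below 0 and 2 were called lower, Kif11 (adjusted p = 0.0442) and Cdk1 (adjusted p = 0.019), while Plk4 no longer passed (adjusted p = 0.113). No share of all genes is given for that fit, so these counts are not read against all genes. Leaving out P1 Tail replicate 4 or 6 left no call, and leaving out P5 Tail replicate 3 or 4 gave 5, where 4.16% and 2.52% of all genes were called lower.

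Averaged over both sites, 46 of the 47 genes were below 0, all but Mybl2, with a median of -0.17 (all genes 0.02, 44.4% below 0). Kif11, Prc1, Kif23, Bub1 and Cdc6 fell, 5 of 47, where 2.56% of all genes were called lower, and none rose, where 4.14% were called higher. No gene of the 47 reached a 2-fold difference in any of the 3 comparisons. All P5 arrays of both sites lay below all P1 arrays of both sites for 5 of the 47, Bub1, Cdc45, Kif11, Kif23 and Prc1, against 0.912% of all genes. The count of 5 was not stable: it was 13 without P5 Tail replicate 2, where 3.47% of all genes were called lower. It was 2 or 3 with any single array left out among P1 Tail replicates 4 and 6, P1 Back replicates 1, 5 and 6 and P5 Back replicates 1, 2 and 3. Calls among all genes fell as well when a back array was left out. In the labelled-back comparison their share called lower was then 0.846% to 1.34%, against 2.03% with all arrays.

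**Figure D2:**
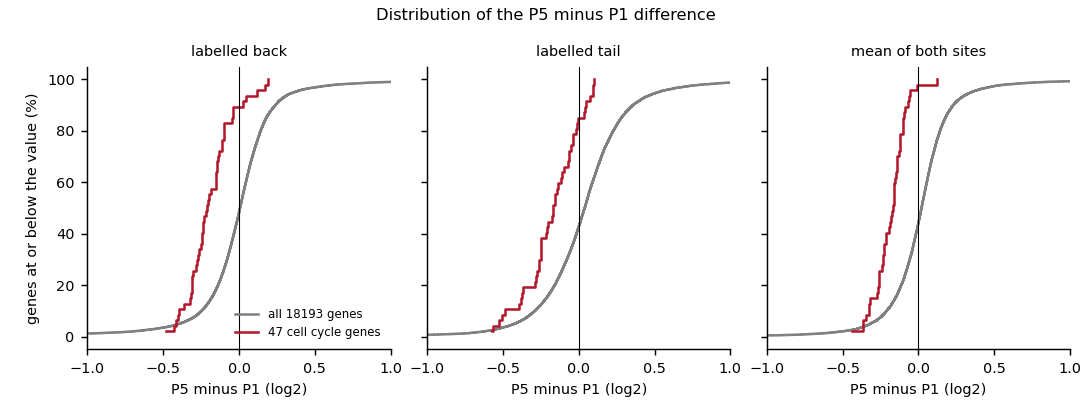
Cumulative share of genes (y axis, percent) against the P5 minus P1 difference (x axis, log2, drawn from -1 to 1) for the 47 cell cycle genes (red) and all 18193 genes (grey). The red curves lie left of the grey ones, with medians of -0.21, -0.17 and -0.17 against 0.01, 0.04 and 0.02, and hold no gene beyond 1 in size.

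The 9 genes of the centromere, spindle and cytokinesis held 3 of the 5 calls, with medians of -0.25 in labelled-back and -0.29 in labelled-tail arrays. Kif11 encodes Eg5, the motor that pushes spindle poles apart. It stood at 0.06, 0.05 and 0.03 at P1 and -0.04, -0.34 and -0.21 at P5 in labelled-back arrays, and at 0.30, 0.15 and 0.17 at P1 and -0.37, -0.14 and -0.32 at P5 in labelled-tail arrays. Every P5 array was below every P1 array. The difference was -0.25 ± 0.11 (SE) in labelled-back arrays (adjusted p = 0.315) and -0.48 ± 0.11 in labelled-tail arrays (adjusted p = 0.0191), and averaged over sites Kif11 fell by 22.4% (log2 -0.37 ± 0.07, adjusted p = 0.0102).

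Prc1 bundles the microtubules between the separating chromosomes. Its values were 0.30, 0.17 and 0.17 at P1 and -0.04, -0.30 and -0.11 at P5 in labelled-back arrays. They were 0.08, 0.18 and 0.02 at P1 and -0.35, -0.35 and -0.11 at P5 in labelled-tail arrays, so that again no P5 array reached a P1 array. The gene fell by 22.4% averaged over sites (log2 -0.36 ± 0.08, adjusted p = 0.0118), with nearly the same difference at each site, -0.36 ± 0.11 in labelled-back arrays (adjusted p = 0.0941) and -0.37 ± 0.11 in labelled-tail arrays (adjusted p = 0.0707).

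Kif23 encodes the kinesin of centralspindlin, which works beside Prc1 in cytokinesis. Labelled-back arrays read 0.25, 0.28 and 0.17 at P1 and -0.14, -0.24 and -0.11 at P5, and labelled-tail arrays 0.02, 0.20 and -0.03 at P1 and -0.40, -0.11 and -0.05 at P5. The ages did not overlap, though P1 Tail replicate 6 and P5 Tail replicate 4 lay close to each other. Kif23 fell by 19.9% averaged over sites (log2 -0.32 ± 0.08, adjusted p = 0.0306), a call kept in 11 of 21 alternatives.

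Cenpf and Cenpe, a kinetochore protein and the motor that carries chromosomes to the spindle equator, had the widest gap between the site differences in this group, which as an interaction did not pass. Cenpf stood at -0.13, -0.03 and -0.01 at P1 and 0.18, -0.05 and 0.05 at P5 in labelled-back arrays, a difference of 0.12 ± 0.21. In labelled-tail arrays it was 0.41, 0.19 and 0.35 at P1 and -0.91, 0.06 and 0.08 at P5, a difference of -0.57 ± 0.21 (adjusted p = 0.142) that was -0.24 without P5 Tail replicate 2. Cenpe was also lowest in that array, at -0.77, and its labelled-tail difference was -0.53 ± 0.18 with it and -0.26 without it. Among the rest of the group, Nusap1 (-0.28 ± 0.09 averaged over sites, adjusted p = 0.0994) and Cenpa (-0.21 ± 0.08, adjusted p = 0.15), which encode a microtubule bundler and the centromeric histone, were below 0 at both sites without passing. The Cenpa value is the mean of 3 probe sets, which averaged over sites stood at -0.54, -0.04 and -0.06. Tested alone, the first passed (adjusted p = 0.0464), and the second was above 0 in labelled-back arrays (0.13). Kif20a and Tpx2, a late mitotic kinesin and the activator of Aurora A, had averaged differences of -0.17 ± 0.10 and -0.14 ± 0.10 and were highest of all arrays in P5 Tail replicate 4.

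Among the 10 mitotic kinases and spindle checkpoint genes, Bub1, the checkpoint kinase at unattached kinetochores, was the one called in the average of both sites. Its values were 0.10, 0.04 and 0.15 at P1 and -0.17, -0.41 and -0.08 at P5 in labelled-back arrays and 0.34, 0.07 and 0.18 at P1 and -0.78, -0.17 and -0.17 at P5 in labelled-tail arrays. Every P5 array was below every P1 array, P5 Tail replicate 2 by far the lowest. Bub1 fell by 26.3% averaged over sites (log2 -0.44 ± 0.11, adjusted p = 0.0321), and without P5 Tail replicate 2 the averaged difference was -0.34 (adjusted p = 0.0215). Plk4, the kinase that starts centriole duplication, stood at 0.36, 0.11 and 0.37 at P1 and -0.40, 0.04 and -0.30 at P5 in labelled-tail arrays, without overlap, and at 0.05, -0.03 and 0.0035 at P1 and -0.07, -0.33 and -0.03 at P5 in labelled-back arrays, where P5 replicates 1 and 3 lay close to the lowest P1 array. It fell by 29.5% in labelled-tail arrays (log2 -0.50 ± 0.13, adjusted p = 0.0435), while the labelled-back difference was -0.15 ± 0.13 (adjusted p = 0.789).

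The rest of the group was below 0 averaged over sites without passing the test. Plk1, which triggers mitotic entry, had differences of -0.28 ± 0.14 in labelled-back and 0.10 ± 0.14 in labelled-tail arrays, the latter -0.08 without P5 Tail replicate 2, in which Plk1 stood at 0.46. Aurka and Aurkb, the kinases of spindle poles and centromeres, had averaged differences of -0.13 ± 0.08 and -0.12 ± 0.12. Birc5 and Cdca8, the survivin and borealin that hold Aurora B at the centromere, were at -0.27 ± 0.10 (adjusted p = 0.142) and -0.20 ± 0.08 (adjusted p = 0.165), and both were called once P5 Tail replicate 2 was left out (adjusted p = 0.0236 and 0.024). The checkpoint genes Bub1b, Mad2l1 and Ttk were at -0.15 ± 0.08, -0.17 ± 0.10 and -0.26 ± 0.10.

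**Figure D3:**
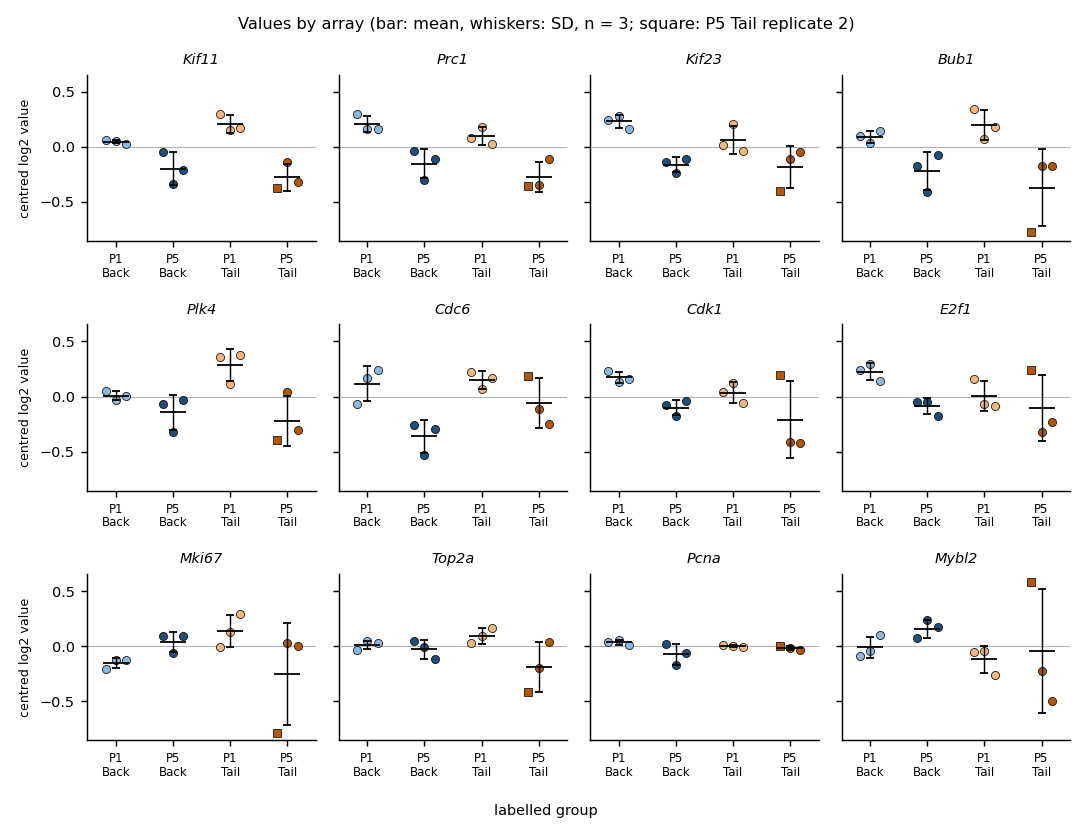
Centred log2 values (y axis) of 12 cell cycle genes in each array by labelled group (x axis), with the group mean and SD (n = 3). For Kif11, Prc1, Kif23 and Bub1 all P5 arrays lie below all P1 arrays, whereas P5 Tail replicate 2 (square) is the lowest of all arrays for Mki67 and Top2a and the highest for Mybl2.

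The 10 genes of origin licensing and the replication fork were all below 0 in labelled-back arrays, with a median of -0.29, against -0.06 in labelled-tail arrays. Cdc6, which loads the MCM helicase onto origins, was the one called. It stood at -0.07, 0.17 and 0.24 at P1 and -0.26, -0.53 and -0.30 at P5 in labelled-back arrays and at 0.22, 0.07 and 0.17 at P1 and 0.19, -0.11 and -0.25 at P5 in labelled-tail arrays. The labelled-back ages did not overlap, while P5 Tail replicate 2 lay inside the P1 Tail range. Averaged over sites Cdc6 fell by 21.3% (log2 -0.35 ± 0.09, adjusted p = 0.0448), and the separate differences were -0.48 ± 0.13 in labelled-back (adjusted p = 0.0656) and -0.21 ± 0.13 in labelled-tail arrays (adjusted p = 0.393). This was the call nearest the threshold, kept in 7 of 20 alternatives.

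The 6 subunits of the MCM helicase ran from -0.43 ± 0.17 for Mcm2 to -0.10 ± 0.12 for Mcm7 in labelled-back arrays. Mcm5 had the lowest adjusted p of them (-0.41 ± 0.14, adjusted p = 0.146), with values of 0.12, 0.16 and 0.25 at P1 and -0.25, -0.24 and -0.21 at P5 that did not overlap. In labelled-tail arrays Mcm5 stood at 0.10, -0.18 and -0.03 at P1 and 0.41, -0.16 and -0.08 at P5, a difference of 0.09 ± 0.14 that was -0.08 without P5 Tail replicate 2. Mcm2, Mcm3 and Mcm7 were likewise highest of all 12 arrays in P5 Tail replicate 2, at 0.54, 0.43 and 0.28.

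Gmnn encodes geminin, which stops licensing after S phase has begun. It stood at 0.49, 0.07 and 0.15 at P1 and -0.31, 0.13 and -0.23 at P5 in labelled-tail arrays and at -0.02, 0.01 and 0.09 at P1 and -0.01, -0.28 and -0.09 at P5 in labelled-back arrays, with overlap of the ages at both sites. Its differences were -0.38 ± 0.14 (adjusted p = 0.149) and -0.15 ± 0.14 (adjusted p = 0.813). Cdc45, a subunit of the moving helicase, was lower in every P5 array than in every P1 array, at 0.09, 0.07 and 0.14 at P1 and -0.07, -0.15 and -0.20 at P5 in labelled-back and -0.03, 0.14 and -0.06 at P1 and -0.30, -0.21 and -0.10 at P5 in labelled-tail arrays. Its averaged difference of -0.23 ± 0.07 did not pass (adjusted p = 0.07). The Cdc45 values are the mean of 2 probe sets that differed by site. The first had differences of -0.45 in labelled-back and -0.04 in labelled-tail arrays, and the second -0.02 and -0.39. The fall of Cdc45 at both sites is therefore that of the mean, since each probe set was near 0 at the site where the other fell.

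Pcna, the sliding clamp of the polymerases, lay near its median in nearly every array. Its labelled-tail arrays read 0.01, -0.0016 and -0.01 at P1 and 0.0016, -0.01 and -0.04 at P5, and its labelled-back arrays 0.04, 0.05 and 0.01 at P1 and 0.02, -0.17 and -0.07 at P5. The averaged difference was -0.06 ± 0.06, with a 95% interval of -0.20 to 0.07.

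Of the 4 genes of nucleotide supply and DNA methylation upkeep, Rrm2, the regulated subunit of ribonucleotide reductase, came nearest to a call. It stood at 0.12, 0.20 and 0.13 at P1 and -0.08, -0.28 and -0.12 at P5 in labelled-back arrays, without overlap, and at 0.15, 0.0008 and 0.08 at P1 and 0.01, -0.09 and -0.16 at P5 in labelled-tail arrays, where P5 Tail replicate 2 lay just above the lowest P1 array. The averaged difference was -0.23 ± 0.07 (adjusted p = 0.0589). Tyms, the thymidylate synthase, stood at 0.04, 0.17 and 0.25 at P1 and -0.22, 0.05 and 0.12 at P5 in labelled-tail and at -0.04, -0.10 and -0.02 at P1 and -0.01, -0.19 and -0.08 at P5 in labelled-back arrays, with overlap at both sites and an averaged difference of -0.10 ± 0.08. Rrm1, the other reductase subunit, and Uhrf1, which brings the maintenance methyltransferase to new DNA, were at -0.12 ± 0.10 and -0.14 ± 0.10.

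The cyclins, cyclin-dependent kinases and partners of the anaphase-promoting complex had medians of -0.21 in labelled-back and -0.16 in labelled-tail arrays, and none of the 9 passed. Cdk1, the kinase of mitotic entry, stood at 0.23, 0.13 and 0.16 at P1 and -0.07, -0.18 and -0.04 at P5 in labelled-back arrays without overlap. In labelled-tail arrays it stood at 0.04, 0.12 and -0.06 at P1 and 0.19, -0.41 and -0.42 at P5, where replicate 2 was above all P1 arrays and the other P5 arrays far below them. The differences were -0.27 ± 0.15 and -0.25 ± 0.15, with an averaged adjusted p of 0.176, and without P5 Tail replicate 2 the averaged difference was -0.36 (adjusted p = 0.00467).

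Ccne2, one of the cyclins that open S phase, was widely scattered, at 0.70, -0.02 and 0.32 at P1 and 0.02, 0.57 and -0.38 at P5 in labelled-tail and -0.14, -0.24 and 0.07 at P1 and 0.07, -0.23 and -0.08 at P5 in labelled-back arrays. The ages overlapped at both sites, and the averaged difference was -0.12 ± 0.16. Ccna2 and Ccnb2, the cyclins of S to G2 and of mitosis, were at -0.23 ± 0.07 (adjusted p = 0.0647) and -0.16 ± 0.08. Ccne1 and Cdk2, which act together at the start of S phase, were at -0.10 ± 0.09 and -0.14 ± 0.08. Cdc20 and Ube2c, activator and ubiquitin-conjugating enzyme of the anaphase-promoting complex, were at -0.09 ± 0.09 and -0.16 ± 0.11, and Cdca3, which promotes mitotic entry, at -0.01 ± 0.09.

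The 3 transcription factors had medians of -0.10 in labelled-back and -0.04 in labelled-tail arrays. E2f1 stood at 0.24, 0.29 and 0.14 at P1 and -0.05, -0.05 and -0.17 at P5 in labelled-back arrays, without overlap, and at 0.16, -0.07 and -0.08 at P1 and 0.24, -0.32 and -0.23 at P5 in labelled-tail arrays, with P5 replicate 2 above every P1 array. Its averaged difference was -0.21 ± 0.10 (adjusted p = 0.26), and without that array -0.30 (adjusted p = 0.0224). Mybl2 was the gene above 0, at 0.12 ± 0.15 averaged over sites (adjusted p = 0.727), but its labelled-tail P5 values ran from 0.59 in replicate 2 to -0.50 in replicate 4, and without replicate 2 the averaged difference was -0.04. Foxm1 was at -0.07 ± 0.07.

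Mki67 and Top2a, the usual markers of dividing cells, passed the test at neither site. Mki67, which coats mitotic chromosomes, stood at -0.20, -0.12 and -0.12 at P1 and 0.09, -0.07 and 0.09 at P5 in labelled-back arrays. All P5 arrays were above all P1 arrays there, an order shown by 14.4% of all genes and by Mki67 alone of the 47. Mki67 stood at -0.0044, 0.13 and 0.29 at P1 and -0.79, 0.02 and 0.0044 at P5 in labelled-tail arrays, where replicate 2 alone was far below the rest. Its differences were 0.19 ± 0.18 (adjusted p = 0.82) and -0.39 ± 0.18 (adjusted p = 0.24), the latter -0.12 without replicate 2.

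Top2a, the topoisomerase that untangles sister DNA, read -0.03, 0.04 and 0.03 at P1 and 0.05, -0.01 and -0.12 at P5 in labelled-back and 0.02, 0.09 and 0.17 at P1 and -0.41, -0.20 and 0.04 at P5 in labelled-tail arrays. The ages overlapped at both sites, and the differences were -0.04 ± 0.12 and -0.28 ± 0.12 (adjusted p = 0.185).

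**Figure D4:**
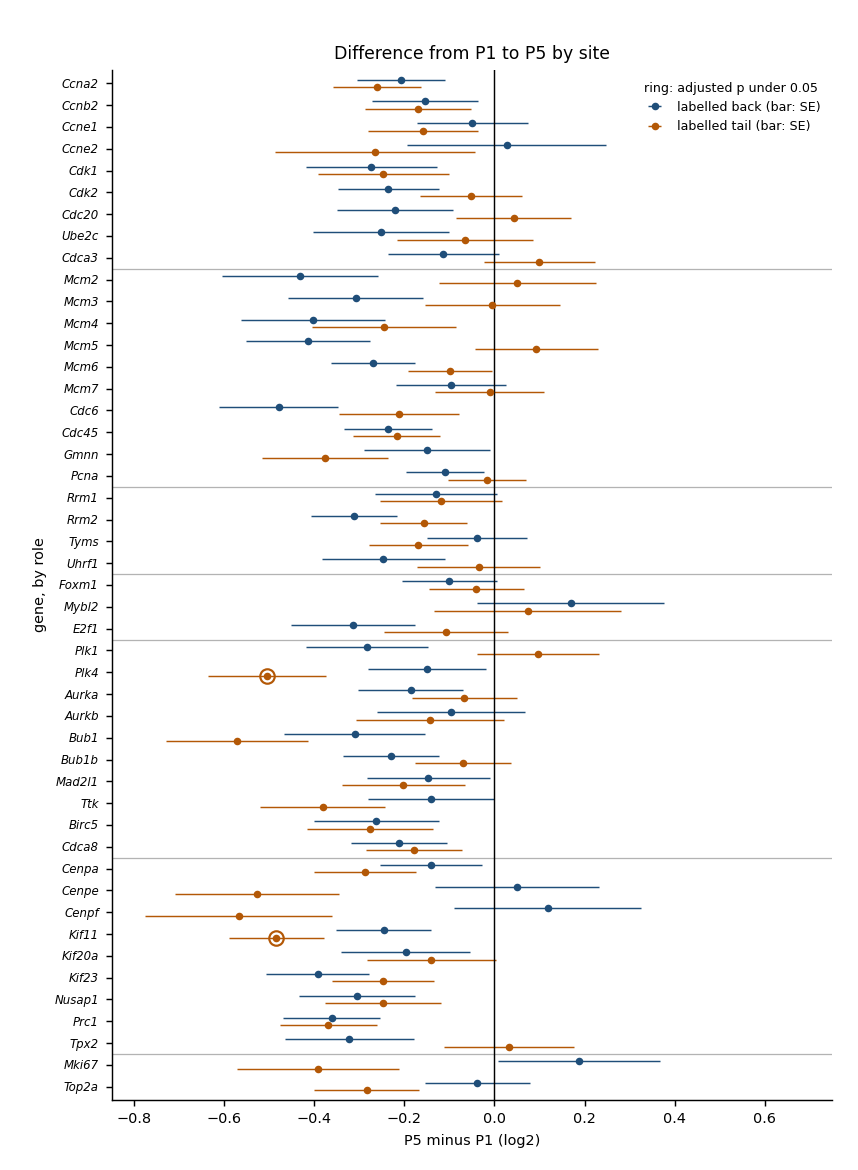
P5 minus P1 difference (x axis, log2, with its SE) of each of the 47 cell cycle genes (y axis, by role) in labelled-back (blue) and labelled-tail (orange) arrays, with rings at an adjusted p under 0.05 (Kif11 and Plk4, labelled tail). Most points lie left of 0 at both sites, and the Mcm genes lie further left in labelled-back arrays, Cenpe, Cenpf and Mki67 in labelled-tail arrays.

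In P5 Tail replicate 2 the role groups lay apart. The licensing and fork genes averaged 0.15 in it, against -0.06 and -0.16 in P5 Tail replicates 3 and 4. The centromere and spindle genes averaged -0.35 in it, against -0.17 and -0.01 in the other 2. Of the 47 genes, 13 were lowest of all arrays there, among them Bub1, Cenpe, Cenpf, Kif11, Mki67, Plk4, Top2a and Ttk, and 15 were highest, among them Mcm2, Mcm3, Mcm5, Mcm7, Mybl2, Plk1, Cdc20 and Ube2c. These are 27.7% and 31.9% of the 47, against 18.2% and 26.7% of all genes, so extremes of both signs were common in that array. The median SD of a cell cycle gene within the P5 Tail group was 0.25, against 0.05 in P1 Back, 0.08 in P1 Tail and 0.10 in P5 Back. Without this array the labelled-tail medians of these 2 roles were -0.17 and -0.24.

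Several genes were measured by more than 1 probe set, which gives a check within the arrays. The 47 genes had 108 probe sets, of which 98 (90.7%) had an averaged difference below 0, against 47.97% of all probe sets. For 7 of the 35 genes with several probe sets the signs of the averaged difference differed between them, namely Bub1b, Cdca3, E2f1, Mcm7, Rrm1, Tpx2 and Tyms. In labelled-tail arrays the signs differed for these 7 and also for Aurka, Cdc20, Cdk2, Foxm1, Mcm2, Mcm3, Mcm5, Mcm6 and Uhrf1. In labelled-back arrays they differed for Aurkb, Cenpa, Cenpe, Top2a, Ttk and Tyms. None of the 6 genes called in any comparison was among the genes with differing signs, but Cdc6 had only 1 probe set and could not be checked.

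Differences between sites at one age were not called for any of the 47 genes, where 3.97% of all genes were called at P1 and 6.91% at P5 in either direction. At an unadjusted p under 0.05, Cenpe alone was higher in labelled-tail arrays at P1 (0.43 ± 0.18, adjusted p = 0.291). Of all 18193 genes, 1154 were higher and 1476 lower at that level. At P5, Mcm6, Cdc6 and Mcm2 were higher and Ccne1 lower in labelled-tail arrays at that level, with adjusted p from 0.185 to 0.244. Of all genes, 1935 were higher and 1754 lower there. The methods' t-test after adjustment called 0 of the 47 at either age. At P5, 1 of the 47 was called lower in labelled-tail arrays without P5 Tail replicate 2 and 1 higher without P5 Tail replicate 4, and at P1 array weights gave 5 higher and 3 lower, where 8.1% of all genes were called higher and 12% lower. The interaction of site and age was called for none of them, where 2.87% of all genes were called. Its lowest adjusted p was for Mcm5 (0.51 ± 0.19, labelled tail minus labelled back, adjusted p = 0.237), followed by Cenpf (-0.69 ± 0.29, adjusted p = 0.305) and Mki67 (-0.58 ± 0.25, adjusted p = 0.319), and these with Cenpe were the 4 genes under 0.05 before adjustment. Of all 18193 genes, 1521 were above 0 and 1094 below 0 at that level, so the 4 did not stand out by number.

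Genes of the same processes outside the 47 were counted from separate lists. Of 75 other mitosis genes, 9 were called lower in labelled-tail arrays, 0 in labelled-back arrays and 13 averaged over sites, none was called higher, and the medians were -0.21, -0.17 and -0.20. Cenpi, a centromere protein, fell by 28.9% averaged over sites (log2 -0.49 ± 0.08, adjusted p = 0.00225), and stood at 0.31, 0.24 and 0.18 at P1 and -0.04, -0.15 and -0.15 at P5 in labelled-back and 0.04, 0.13 and 0.05 at P1 and -0.32, -0.64 and -0.72 at P5 in labelled-tail arrays with no overlap of the ages. Kif15, a spindle kinesin, fell by 26.7% (adjusted p = 0.00899), Shcbp1 by 31% (adjusted p = 0.0395) and the condensin gene Ncapg2 by 29.8% (adjusted p = 0.0376). Of 48 other DNA replication genes, 1 was called lower in labelled-tail arrays, the chromatin remodeller Hells (-0.64 ± 0.17, adjusted p = 0.0484), and 1 averaged over sites, the checkpoint mediator Clspn (-0.28 ± 0.07, adjusted p = 0.04), with medians of -0.13, -0.11 and -0.11 for labelled back, labelled tail and both. These single calls of 48 lie near the shares called lower among all genes, 1.96% and 2.56%.

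Among genes that act before S phase, calls were single. Of 16 Rb and other E2f genes, 1 was called lower averaged over sites, E2f7, itself a repressor of E2F targets (-0.43 ± 0.11, adjusted p = 0.0407), and the medians were -0.04, -0.15 and -0.07. None of the 5 D cyclins and their kinases was called, Cdk6 coming nearest (-0.29 ± 0.08 averaged over sites, adjusted p = 0.0564). Of 8 Cdk inhibitors, Cdkn1c, which holds cells in G1, fell by 50.1% in labelled-tail arrays (adjusted p = 0.0243), with values of 0.27, -0.41 and -0.14 at P1 and -0.67, -1.61 and -1.004 at P5. Its labelled-back values were 0.68, 0.22 and 0.56 at P1 and 0.12, -0.12 and 0.27 at P5, which overlapped, and averaged over sites the gene fell by 38.5% (log2 -0.70 ± 0.16, adjusted p = 0.0204). Cdkn1c was the 1 gene of these lists with a 2-fold difference.

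Markers of keratinocytes, hair follicle and fat also differed with age, with called genes at one or both labelled sites and in part in opposite directions. The mean of 10 basal keratinocyte genes ran from -0.05 to 0.20 in P1 Back and from -0.53 to -0.39 in P5 Back arrays, but from -0.45 to 0.01 in P1 Tail and from 0.28 to 0.57 in P5 Tail arrays. In labelled-back arrays 6 of the 10 were called lower and 0 higher, in labelled-tail arrays 5 higher and 0 lower. Of 9 suprabasal keratinocyte genes, 5 were called lower in labelled-back arrays (median -1.63) and 0 in labelled-tail arrays. Their mean ran from 1.01 to 1.36 in P1 Back, from -1.05 to -0.35 in P5 Back, from -1.79 to 0.31 in P1 Tail and from -0.34 to 0.02 in P5 Tail arrays. Of 14 hair follicle matrix and shaft genes, 13 were called higher and 1 lower in labelled-back arrays (median 1.11), and 1 higher in labelled-tail arrays (median 0.30). Their mean ran from -0.64 to -0.47 in P1 Back, from 0.49 to 0.74 in P5 Back, from -0.42 to 0.11 in P1 Tail and from -0.01 to 0.56 in P5 Tail arrays. The part of these cells in the cell cycle values was not tested.

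Among dermal and deeper cell types, 12 fibroblast genes had medians of -0.02 in labelled-back and 0.01 in labelled-tail arrays, with 2 called lower in labelled-back arrays and 0 in labelled-tail arrays. Of 10 adipocyte genes, 5 were called higher and 1 lower in labelled-back arrays and 6 lower in labelled-tail arrays, and their mean ran from -0.97 to -0.93 in P1 Back, from -0.44 to -0.05 in P5 Back, from 0.97 to 1.396 in P1 Tail and from -0.03 to 0.38 in P5 Tail arrays. Of 12 myeloid genes, 2 were called lower in labelled-tail arrays (median -0.43). Of 12 skeletal muscle genes 2 were called lower in labelled-tail arrays, and the medians were -0.40 in labelled-back and -1.72 in labelled-tail arrays. The mean of that list ran from -1.76 to 0.61 among P1 Back, from -1.76 to 1.10 among P5 Back, from 0.58 to 1.72 among P1 Tail and from -0.87 to -0.32 among P5 Tail arrays. The mean of 12 cartilage genes was highest in P1 Back replicates 1 and 6 (1.91 and 1.64) and P5 Back replicate 3 (0.85), against -0.37 to 0.13 elsewhere. Without these 3 arrays P1 Back rests on replicate 5 alone, so only the size of the differences is given. The medians over the cell cycle genes were then -0.20 in labelled-back arrays, -0.17 in labelled-tail arrays and -0.17 averaged over both sites. Endothelial and erythroid genes gave 0 and 1 calls in labelled-tail arrays and none in labelled-back arrays, and the part of these cell types was likewise not tested.

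**Figure D5:**
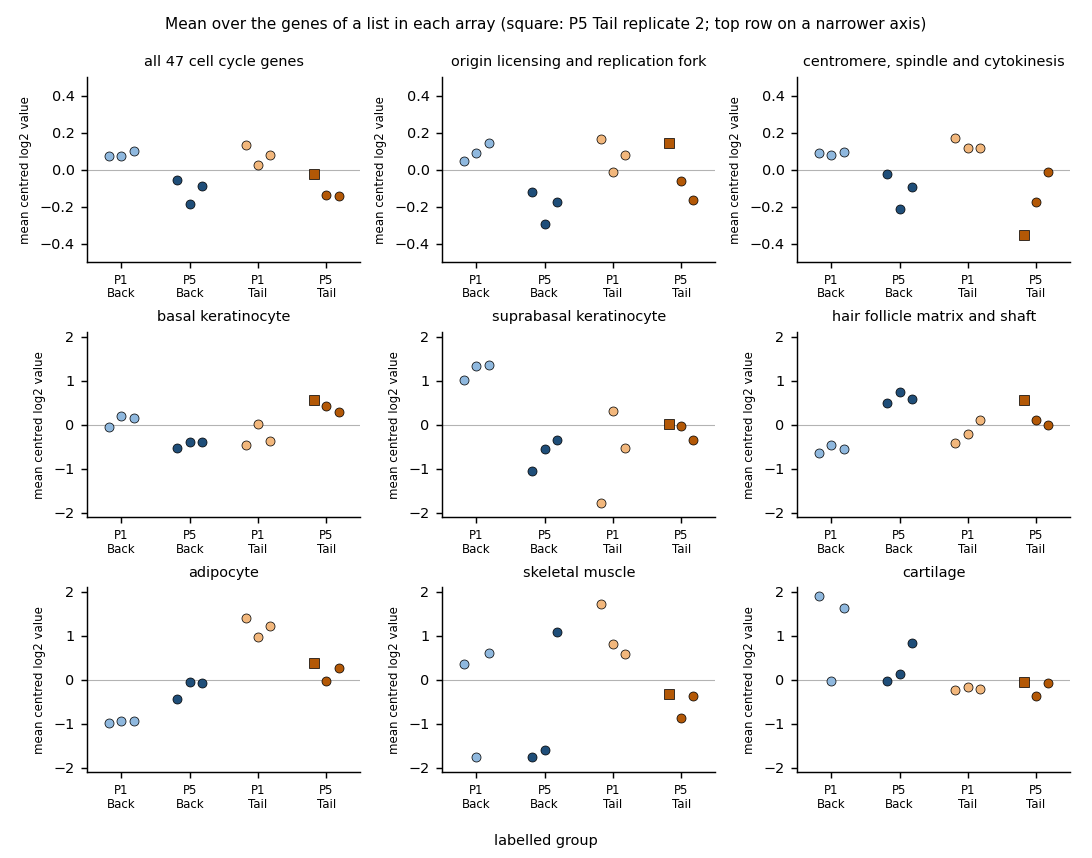
Mean centred log2 value (y axis) over all 47 cell cycle genes, 2 of their role groups and 6 lists of cell type markers in each array by labelled group (x axis). The top row, on a narrower axis, shows the mean over all 47 genes below 0 in all 6 P5 arrays and above 0 in all 6 P1 arrays, while basal keratinocyte markers are lower at P5 in labelled-back and higher at P5 in labelled-tail arrays.

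The age differences were also set beside the promoter letters. For the 21 measured genes with a CHR in a window the median differences were -0.22 in labelled-back, -0.22 in labelled-tail and -0.19 averaged over sites. For the 18 with a window and no CHR they were -0.24, -0.14 and -0.17. Of the 5 genes called averaged over sites, Bub1, Kif11, Kif23 and Prc1 carried a CHR with a CCAAT box and Cdc6 an E2F site, and Plk4, called in labelled-tail arrays, carried an E2F site.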

How the data were processed

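The authors hybridised RNA of 12 dermis samples, 1 per array, and normalised the arrays by RMA in GeneSpring (per the study's methods and the labels). The deposited values were log2 intensities, with each of 45101 probe sets centred on its median over the arrays, which removes levels and keeps differences. The log base was taken from RMA. The stated filter on the lowest signals could not be rerun on centred values. The file held no column for other samples (0 columns left unused).

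Control probe sets (64) were dropped. Of the other 45037, 34945 had 1 gene symbol in GEO's platform annotation, 932 several and 9160 none. Of the 34945, 34741 were matched to RefSeq by gene ID and the rest kept the annotation's symbol. All 34945 were averaged per gene to 18193 genes. All 12 arrays were fitted in 4 groups with limma 3.58.1, 2-sided (R 4.3.3, statmod 1.5.0, Python 3.11.15, pandas 2.3.3 and matplotlib 3.10.9), and p-values were Benjamini-Hochberg adjusted over all genes at a threshold of 0.05. The methods' t-test was run on the same values and adjusted likewise. Differences are P5 minus P1, or labelled tail minus labelled back, with SE, and precision was limited by 3 arrays per group. The fitting script was tested on simulated data.

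The genes and lists, and the 24 alternatives tried, were chosen with earlier results of these data known. Values by array were given for Mki67, Top2a, Cdk1 and Pcna and for the gene of each role group with the largest difference at a site; Kif11, Prc1, Plk4, Cdc45 and Mcm5 were added after their values were seen. Arrays were grouped by the labels, and numbers shared by tail and back arrays were not taken as pairs, since deviations of same-numbered arrays correlated at 0.26 and -0.01 at P1 and 0.17 and -0.02 at P5. Motifs were searched in RefSeq windows of GRCm38.p6.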

Additional observations from a re-analysis of the deposited data

How the results depend on the processing

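The median differences of the cell cycle genes moved by less than the spread between arrays under every alternative run, with ranges over single arrays left out of -0.23 to -0.17 for labelled back, -0.21 to -0.12 for labelled tail and -0.22 to -0.16 for both. Counts of calls were less stable. In labelled-back arrays 17 genes were called lower with array weights, 7 with only the compared arrays fitted and 5 with arrays scaled to equal spread, against 0, while 5.88%, 4.25% and 3.44% of all genes were called lower in these fits, against 2.03%. In labelled-tail arrays the count of 2 became 0 with array weights, with only the compared arrays and by the methods' t-test, 1 with the median of probe sets, and 0 to 5 with single arrays left out. Averaged over sites the count of 5 became 10 with array weights (2.86% of all genes), 3 with each probe set tested alone, and 2 to 13 with single arrays left out. The 3 genes with a probe set called alone were Kif11, Prc1 and Cenpa, and Cenpa was not among the 5. A fit without the 3 arrays high in cartilage genes leaves P1 Back with replicate 5 alone, so its counts are not listed. Between sites at P1, array weights called 5 genes higher and 3 lower and a fit of only the compared arrays called 1 higher, and at P5 leaving out single arrays gave 0 to 1 in each direction, 1 lower without P5 Tail replicate 2 and 1 higher without P5 Tail replicate 4. The cause was not tested. With the replicate block within age, 0, 3 and 4 genes were called lower in labelled-back arrays, labelled-tail arrays and both, Cdc6 no longer among the last. In labelled-back arrays that fit called 2.11% of all genes lower. The averaged call of Kif11 was kept in 20 of 21 alternatives, Prc1 in 19 of 20, Bub1 in 13 of 21, Kif23 in 11 of 21 and Cdc6 in 7 of 20, and in labelled-tail arrays Kif11 in 11 of 17 and Plk4 in 8 of 17. No called gene turned its sign.

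Signal over background could not be read from centred values, so that dim genes could not be told from bright ones, and 3 arrays per group limit the precision. Same-numbered tail and back arrays were not shown to be pairs. P5 Tail replicate 2 differed from the other arrays in spread and in its Gapdh probe sets, and arrays differed in cartilage, muscle, fat and keratinocyte markers; the part of either in the cell cycle values was not tested.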
